A study of Mus musculus with 94 samples.

Results

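The comparison described here was that of macrophage segments from vehicle-treated mice on day 14 after ischemia-reperfusion injury (IRI) with those on day 1, within the cortex and within the medulla. Segments were chosen by their labels alone: the marker IBA1 and the group codes I14V and I1V, which gave 8 segments on day 14 and 6 on day 1, that is 14 of the 94 segments in the series and of the 46 macrophage segments. All 14 came from 4 kidney sections, 2 per day, told apart by the label prefixes E1 and E2 and called section 1 and section 2 here. Each section had 2 cortical segments. Each section of day 14 also had 2 medullary segments, and each section of day 1 had 1.

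Gene expression was measured with digital spatial profiling (DSP) of formalin-fixed, paraffin-embedded kidney, with the GeoMx mouse whole-transcriptome probe set. Each probe carries a barcode, which UV light frees from a selected area so that it can be sequenced and counted. C57BL/6 male mice received the SYK inhibitor entospletinib or vehicle (DMSO) before unilateral renal IRI, and the study covered uninjured kidneys as controls and days 1, 7, and 14 after IRI. Both groups compared here therefore shared strain, sex, injury, and vehicle, and differed in the day and in the number of injections. By the methods, day 1 mice had no further injection after IRI, whereas dosing of the others was repeated up to day 14. Day and number of injections cannot be told apart here. The labels and the methods give different times for the first dose. Areas were picked by immunofluorescence within regions of interest, IBA1 for macrophages and PanCK for tubules, so a segment is a stained area and not a sorted cell population. No label says outright that each prefix is a single mouse, and the 2 sections per group are the only replicates. P-values of the day comparison rest on the spread between sections of a group, estimated over all 7 groups and not in the 4 sections alone. For differences between regions or compartments, they rest on the spread left within sections. In bulk segments, a change in the number of cells of a type and a change in RNA per cell cannot be told apart.

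Monocytes enter the kidney from the blood within hours to days of ischemic injury, become macrophages, and join the resident population. Macrophages are known to pass from an early inflammatory state to later states that clear debris and take part in repair, and their persistence accompanies fibrosis when repair is incomplete. IBA1 is an actin-binding protein of monocytes and macrophages. Probes appear in the files under identifiers alone, with no gene names beside them, so the probes below are unnamed and no marker gene was looked up.

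Segments differed in depth with the day. Total counts per segment were 378678 to 947255 on day 14 (median 577512) and 80096 to 314406 on day 1 (median 186336). Sequencing saturation was 73.7% to 79.1% on day 1 and 74.5% to 79.3% on day 14, and 16996 or more of the 20175 probes had a count in each segment. The median count per probe was 7 to 25 on day 14 and 2 to 7 on day 1, so that low probes carried little information on day 1. All 20175 probes had a sum of 20 or more over the 14 segments and were tested. No pair of files in the series held identical counts.

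With marker genes out of reach, the label of the segments was checked with lists of probes from the 10 sections of the other groups. In those sections, 410 probes were higher in macrophage than in tubule segments (macrophage-leaning) and 80 were higher in tubule segments (tubule-leaning). The macrophage-leaning probes held 2.22% to 5.82% of the counts of cortical macrophage segments on day 1, against 1.15% to 1.26% in cortical tubule segments of the same sections. On day 14 they held 9.76% to 14.0% in cortical macrophage segments and 2.23% to 5.34% in cortical tubule segments. In the medulla, they held 6.11% to 7.51% on day 1 and 11.8% to 13.9% on day 14 in macrophage segments, against 2.33% to 4.23% and 3.47% to 6.70% in tubule segments. By this list, macrophage segments were thus above tubule segments of the same region and day in every case, in the direction of the label. The median share of this list was also higher on day 14 than on day 1 in both regions and in both compartments, with no overlap between days in macrophage segments. The tubule-leaning list had a lower median in macrophage segments in each case, but ranges overlapped except in the cortex on day 14. On day 1 in the cortex, it held 0.844% to 3.35% in macrophage and 1.68% to 3.62% in tubule segments. On day 14 in the medulla, it held 0.177% to 0.496% and 0.401% to 3.12%.

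In the cortex, 825 probes (4.09% of those tested) differed between day 14 and day 1, 397 higher (1.97%) and 428 lower (2.12%) on day 14. Calls rest on counts summed per section and edgeR's quasi-likelihood test, and required an adjusted p under 0.05 together with a log2 fold change above 1 or under -1. Of the probes called higher, 98 rose by more than 2 on the log2 scale and 14 by more than 3. Of those called lower, 39 fell beyond -2 and 1 beyond -3. The median log2 fold change was 1.55 among the probes called higher and -1.36 among those called lower, beside -0.13 for all 20175 probes. The division into directions moved with the scaling: TMM normalization set the median of all probes at 0.00 and gave 528 higher and 300 lower, in place of the upper quartile's 397 and 428. The total rested on section 2 of day 1, without which 304 probes were called, 287 of them among the 825. Section 2 of day 1 included the shallowest segment, of 80096 counts.

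In the medulla, 479 probes (2.37%) passed, with 260 higher (1.29%) and 219 lower (1.09%) on day 14. Of the probes called higher, 123 rose by more than 2 on the log2 scale and 46 by more than 3, the highest by 5.91. Of those called lower, 23 fell beyond -2 and 5 beyond -3. The median was 1.97 among probes called higher, -1.40 among those called lower, and 0.00 over all probes. Each day 1 section had 1 medullary segment, and the number moved with single sections. It was 203 without section 1 of day 1, 223 without section 1 of day 14, and 276 without section 2 of day 14, and DESeq2 on the same sums called 217, of them 141 higher and 76 lower.

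Calls were concentrated among probes with high counts. In the fifth of probes with the highest level, 15.7% were called in the cortex (281 higher, 353 lower) and 8.25% in the medulla (179 higher, 154 lower). In the fifth with the lowest level the shares were 0.0496% and 0.149%. The median log2 fold change in the fifth with the lowest and in that with the highest level was -0.15 and -0.11 in the cortex, and 0.03 and -0.08 in the medulla.

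**Figure D1:**
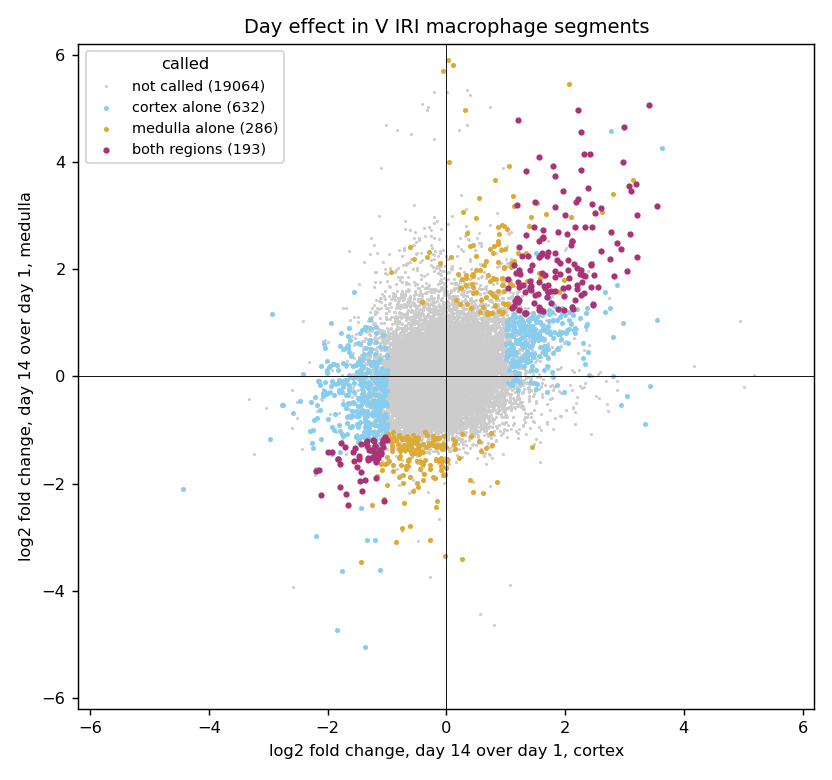
Each point is 1 of the 20175 probes, with the log2 fold change of day 14 over day 1 in cortical macrophage segments on the horizontal axis and in medullary ones on the vertical axis, colored by whether it was called. The 193 probes called in both regions lie at the upper right and the lower left, and none was called in opposite directions.

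Cortex and medulla shared 193 calls, 23.4% of the cortical and 40.3% of the medullary list. All of them had the same direction in both regions, 140 higher and 53 lower on day 14, and 0 probes were called in opposite directions. The lower set was the less stable. It numbered 9 and 26 without section 1 or 2 of day 14, 20 and 31 without section 1 or 2 of day 1, 17 with DESeq2, 23 after thinning, and 29 with TMM normalization. The higher set numbered 71 to 103 with a section left out, 87 with DESeq2, 92 after thinning, and 154 with TMM normalization. The regions of a section come from the same piece of tissue, so they are not independent. Among the 140 probes that rose in both regions, the median log2 fold change was 1.85 in the cortex and 1.98 in the medulla. Among the 53 that fell in both, it was -1.34 and -1.45. At the level of single segments, all 8 segments of day 14 lay above all 6 of day 1 for 119 of the 140 probes, where 454 of all probes (2.25%) did so. All 8 lay below all 6 for 34 of the 53, where 191 of all probes (0.947%) did so. These counts describe probes chosen in the same segments. The plot of cortical against medullary fold changes shows the shared calls beside those made in 1 region.

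Probe RTS0081603 rose most reliably in both regions by the rule used here, which took the probes whose larger adjusted p of the 2 regions was smallest. In CPM, the count scaled to the segment's total, it stood at 222 and 241 in the cortical segments of section 1 and at 49.9 and 96.1 in those of section 2 on day 1, and at 1633 and 904 (section 1) and 1286 and 1363 (section 2) on day 14. In the medulla, it stood at 98.6 and 91.7 on day 1, and at 1689, 1489, 1387, and 1812 on day 14. The days did not overlap in either region, and the day 1 cortical segments of section 1 were above those of section 2. The log2 fold change was 2.98 in the cortex (SE 0.33, adjusted p = 2.55e-12 from edgeR) and 3.99 in the medulla (SE 0.41, adjusted p = 9.78e-16 from edgeR).

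Probe RTS0077370 was scarce on day 1, where it had 5, 4, 1, and 2 counts in the cortical segments and 11 and 4 in the medullary ones. These counts came to 20.6, 24.7, 12.5, and 10.7 CPM in the cortex and 35.0 and 21.6 CPM in the medulla. On day 14 it stood at 231, 170, 210, and 264 CPM in the cortex and at 231, 308, 263, and 324 CPM in the medulla. Every day 14 segment was above every day 1 segment of its region, and the small day 1 counts leave the size of the rise imprecise. The log2 fold change was 3.54 in the cortex (SE 0.40, adjusted p = 2.88e-12 from edgeR) and 3.18 in the medulla (SE 0.40, adjusted p = 1.38e-10 from edgeR).

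Probe RTS0068800 fell in both regions. In the cortex, it stood at 638, 432, 549, and 726 CPM on day 1 and at 152, 176, 215, and 222 CPM on day 14. In the medulla, it stood at 662 and 491 CPM on day 1 and at 110, 117, 173, and 174 CPM on day 14. The lowest day 1 value was above the highest day 14 value in both regions. The log2 fold change was -1.79 in the cortex (SE 0.30, adjusted p = 3.37e-06 from edgeR) and -2.06 in the medulla (SE 0.35, adjusted p = 6.38e-06 from edgeR).

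Probe RTS0078750 also fell in both regions. In the cortex, it stood at 128, 105, 175, and 187 CPM on day 1 and at 31.7, 40.2, 52.5, and 21.1 CPM on day 14. In the medulla, it stood at 162 and 102 CPM on day 1 and at 33.1, 22.4, 20.1, and 48.1 CPM on day 14. Again no segment of one day reached the range of the other, although its day 14 counts were low, at 8 to 30 per segment. The log2 fold change was -2.11 in the cortex (SE 0.31, adjusted p = 6.53e-08 from edgeR) and -2.21 in the medulla (SE 0.37, adjusted p = 1.73e-05 from edgeR). Direction and call held for all 4 in both regions under every alternative tried for the day comparison. The 4 were chosen for the smallest adjusted p in these same sums, so this was favored by the choice and does not speak for the other calls.

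**Figure D2:**
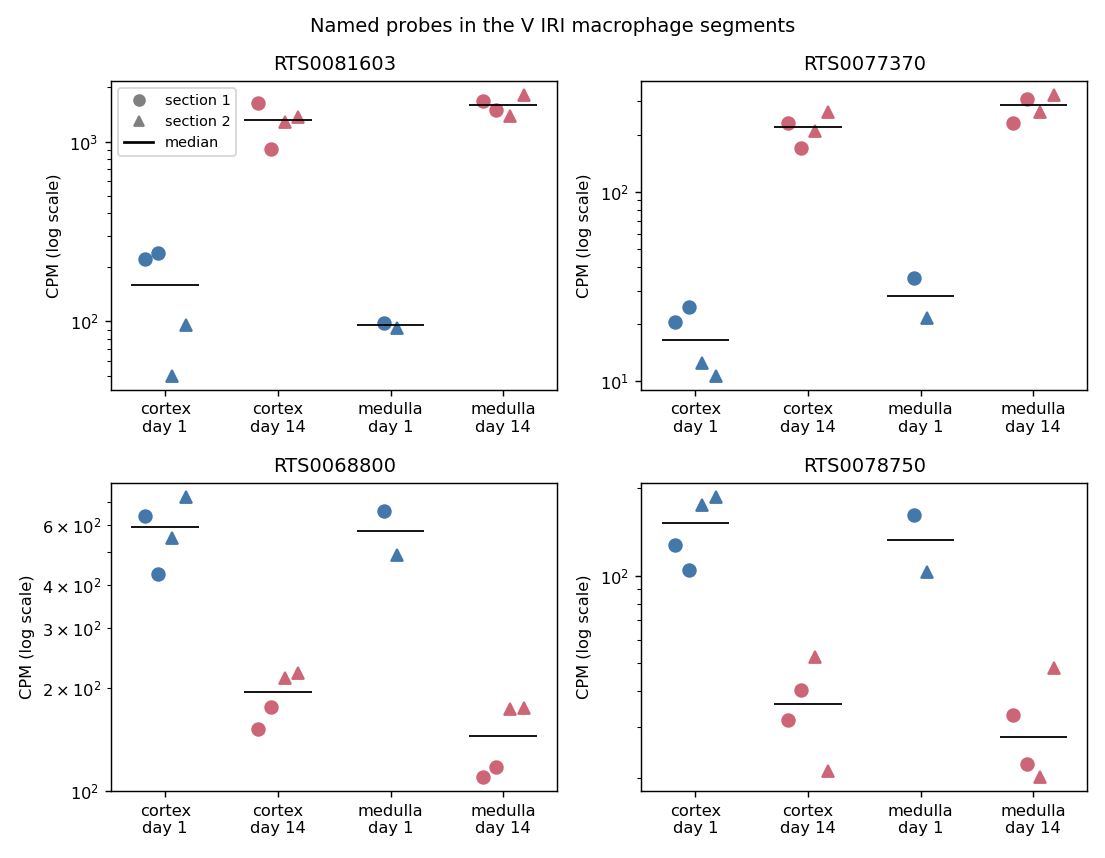
CPM of the 4 named probes in each of the 14 segments, on log axes, by region and day, with circles for section 1, triangles for section 2, and a line at the median of the segments. For each probe the day 14 segments (red) and the day 1 segments (blue) of a region do not overlap, as with RTS0081603, at 49.9 to 241 CPM on day 1 and 904 to 1633 CPM on day 14 in the cortex.

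The named probes differed in where day 1 stood in the course of injury. In cortical sums, RTS0081603 had 264.9 ± 16.4 CPM in control kidneys, 156 ± 104 on day 1, 749.8 ± 266 on day 7, and 1326 ± 6.5 on day 14 (mean ± SD, n = 2 sections each). RTS0077370 followed with 44.4 ± 30.3, 16.7 ± 7.8, 107 ± 28.6, and 220 ± 20.8 CPM. For both, the day 1 sections lay below the control sections, and the mean on day 7 was between those of days 1 and 14. For RTS0077370, section 1 held 1 count in controls (23.0 CPM) and 9 on day 1 (22.2 CPM), so that their order is uncertain. RTS0068800, in contrast, was highest on day 1, at 230.4 ± 130 CPM in controls, 615 ± 83.1 on day 1, 247 ± 13.3 on day 7, and 190.0 ± 39.7 on day 14. RTS0078750 had 70.8 ± 2.4, 150.9 ± 45.8, 70.6 ± 2.1, and 36.6 ± 2.0 CPM, so that day 14 lay below both the control and the day 7 sections. Cortical control values rest on few counts. Section 1 of the controls had 43422 in all, with 11 of RTS0081603, 6 of RTS0068800, and 3 of RTS0078750. In the medulla the order of control, day 1, and day 14 was the same for each of the 4 probes.

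The 140 probes that rose in both regions were followed as a share of counts in the other groups. They held 0.763% to 1.72% of the counts of cortical macrophage segments on day 1 and 3.35% to 4.64% on day 14, in the segments that chose them. Control macrophage segments had 0.980% to 1.60%, and vehicle segments of day 7 had 2.73% to 3.33%. In the medulla the ranges were 1.04% to 1.28% on day 1, 3.19% to 3.22% on day 7, and 4.67% to 5.22% on day 14, with 1.14% to 1.63% in controls. Day 1 thus overlapped the controls in both regions, and day 7 lay between days 1 and 14 without overlap. Relative to controls, the median log2 fold change of the 140 probes was -0.07 on day 1 and 1.76 on day 14 in the cortex, and -0.23 and 1.93 in the medulla.

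The 53 probes that fell in both regions held 1.38% to 2.07% of cortical counts on day 1 and 0.649% to 0.766% on day 14. Controls had 1.08% to 1.87%, and day 7 had 0.731% to 0.915%, which overlapped day 14. In the medulla they held 1.31% to 1.56% on day 1, 0.726% to 0.867% on day 7, 0.455% to 0.587% on day 14, and 1.34% to 1.46% in controls. Relative to controls, their median log2 fold change was 0.44 on day 1 and -0.999 on day 14 in the cortex, and 0.22 and -1.30 in the medulla. In the cortex, 139 of the 140 and 8 of the 53 probes had a log2 fold change above 0 between day 14 and controls, against 65 and 42 between day 1 and controls. Over all 20175 probes, 8983 were above 0 on day 14 and 10127 on day 1, and the sets were chosen on these same day 1 and day 14 segments.

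**Figure D3:**
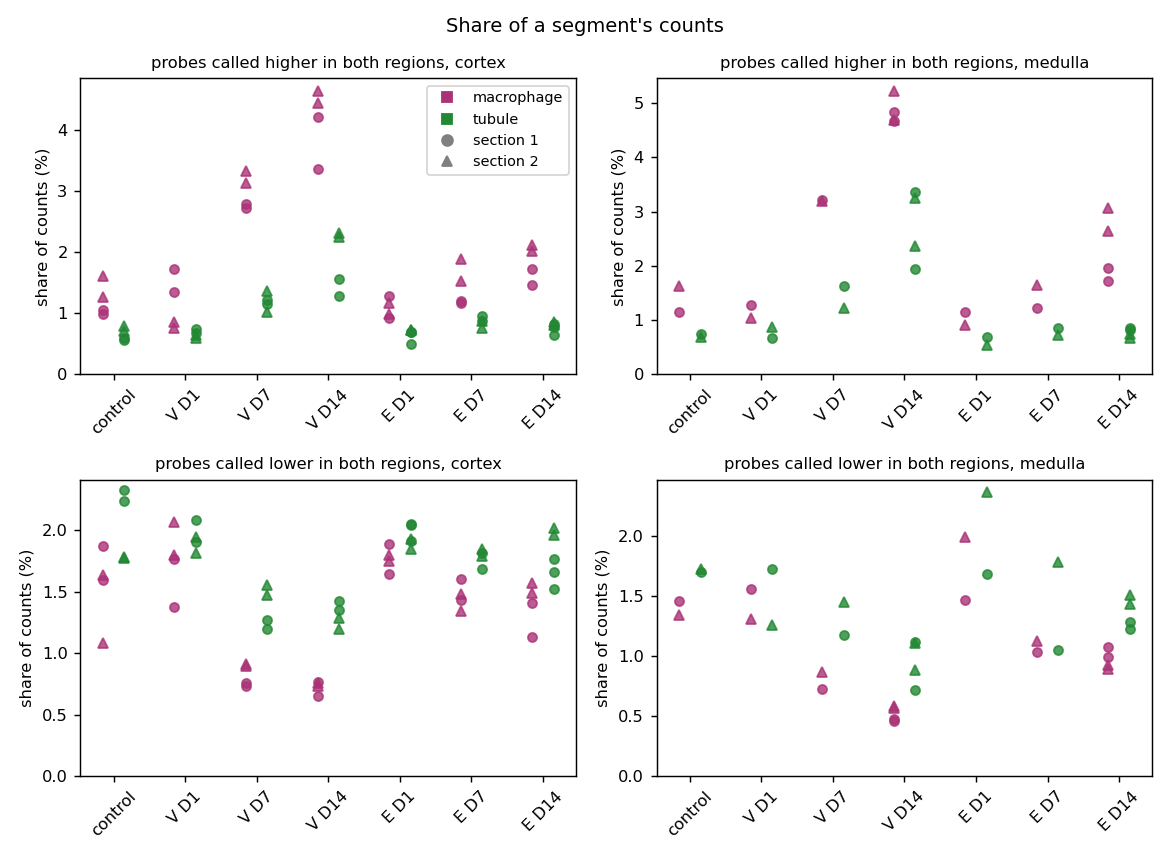
Share of each segment's counts (%) held by the 140 probes called higher (upper panels) and the 53 called lower (lower panels) in both regions, in macrophage (purple) and tubule (green) segments of controls and of vehicle (V) and entospletinib (E) groups on days 1, 7, and 14 (D1, D7, D14). Cortical macrophage segments rise from 0.763% to 1.72% on V D1 to 3.35% to 4.64% on V D14 for the first set, and E D14 segments reach 1.46% to 2.11%.

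Probes called in the cortex alone and in the medulla alone differed in what the other region did. The 257 probes called higher in the cortex alone had a median log2 fold change of 0.76 in the medulla, and 237 of them were above 0 there. The 120 called higher in the medulla alone had a median of 0.81 in the cortex, and 112 were above 0. The 375 called lower in the cortex alone had a median of -0.36 in the medulla, where 95 were above 0. The 166 called lower in the medulla alone had a median of -0.50 in the cortex. Over all 20175 probes, 10109 were above 0 in the medulla and 8249 in the cortex. Both regions came from the same sections, so agreement in sign was favored. Missing the threshold in 1 region is not a difference between regions, which was tested by itself.

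The test of the difference itself, with the section as a block, called 131 probes (0.649%) at an adjusted p under 0.05. For 68 of them the log2 fold change was more positive in the medulla, by a median of 2.16. Of these, 36 were called lower in the cortex and 18 higher in the medulla. For 63 it was more positive in the cortex, where the median difference was -1.71, and 27 of these were called lower in the medulla. Of the 140 probes that rose in both regions, 3 differed between regions, and of the 53 that fell, 1. None of the 4 named probes passed this test. RTS0081603 had the largest difference of the 4, 0.97 more in the medulla (SE 0.39, adjusted p = 0.42 from edgeR). The number rested on single sections. It was 34 without section 2 and 44 without section 1 of day 14, and 48 without section 2 of day 1, while TMM normalization, which moved the median difference of all probes from 0.13 to -0.01, turned the balance to 41 more positive in the medulla and 79 in the cortex.

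The lists of compartment-leaning probes showed which part of the calls lay in probes that tell macrophage from tubule segments. Of the 410 macrophage-leaning probes, 192 (46.8%) rose in the cortex and 1 fell (0.244%), beside 1.97% and 2.12% of all probes, with a median log2 fold change of 1.13 beside -0.13 for all probes. In the medulla, 95 (23.2%) rose and 7 (1.71%) fell, beside 1.29% and 1.09%, with a median of 0.64 beside 0.00. They made up 73 of the 140 probes that rose in both regions, that is 52.1% of the 140 and 17.8% of the 410, where the 410 were 2.03% of all probes. Their summed share in macrophage segments, given above, rose with the day in the same segments, and its part in the other calls was not tested.

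Tubule-leaning probes went down in the cortex. Of the 80, 34 (42.5%) fell and 0 rose, beside 2.12% and 1.97% of all probes, with a median of -1.37. In the medulla, 1 (1.25%) fell and 0 rose, close to the 1.09% and 1.29% of all probes, with a median of -0.12. They held 0.877% and 0.844% of the counts of cortical segments in section 1 and 1.57% and 3.35% in section 2 on day 1, and 0.327% to 0.790% on day 14. The segment of day 1 with 3.35% was within the range of cortical tubule segments of that day, 1.68% to 3.62%. It belonged to the section whose removal took the cortical total from 825 to 304. In medullary macrophage segments the tubule-leaning probes held 0.913% and 0.216% on day 1 and 0.177% to 0.496% on day 14, which overlapped. The fall of tubule-leaning probes and the rise of macrophage-leaning probes moved with the day together in the cortex, and the part of tissue composition in the other calls was not tested.

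**Figure D4:**
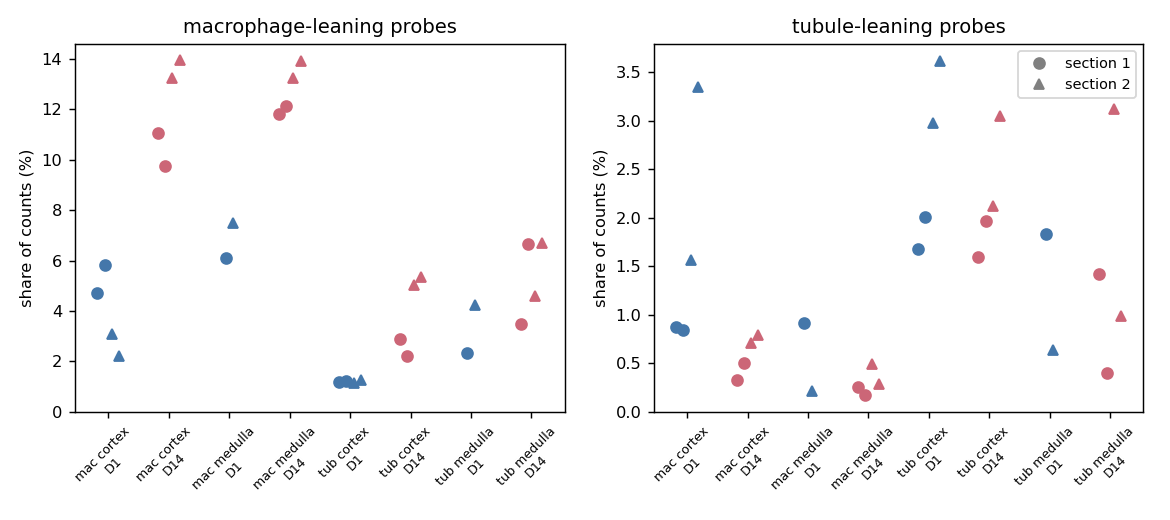
Share of each segment's counts (%) held by 410 macrophage-leaning probes (left) and 80 tubule-leaning probes (right), chosen in other sections, in macrophage (mac) and tubule (tub) segments of vehicle-treated kidneys on day 1 (blue, D1) and day 14 (red, D14), with circles for section 1 and triangles for section 2. The macrophage-leaning share is 9.76% to 14.0% in cortical macrophage segments of day 14, and 1 cortical macrophage segment of day 1 reaches 3.35% of tubule-leaning counts.

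Probes that tell cortical from medullary tubules moved less evenly. Of 103 probes that were higher in cortical tubules of the other sections, 32 (31.1%) fell and 2 (1.94%) rose in cortical macrophage segments, beside 2.12% and 1.97% of all probes, with a median of -0.84. In medullary macrophage segments 1 (0.971%) fell and 2 (1.94%) rose, near the 1.09% and 1.29% of all probes, with a median of -0.03. Of 67 probes that were higher in medullary tubules, 11 (16.4%) fell and 1 (1.49%) rose in the cortex, with a median of -0.37. In the medulla 2 (2.99%) fell and 1 (1.49%) rose, with a median of -0.36. In the cortex, the cortical list held 2.10% to 2.99% of counts on day 1 and 0.918% to 1.40% on day 14, without overlap. In the medulla it held 0.408% to 0.691% and 0.602% to 0.656%, which overlapped. The medullary list overlapped between days in both regions. It held 0.371% to 1.01% and 0.329% to 0.441% in the cortex, and 0.356% to 1.02% and 0.303% to 0.432% in the medulla.

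Tubule segments of the same sections allowed the 2 compartments to be compared within a section. Of the 140 probes that rose in both regions of macrophage segments, 139 had a log2 fold change above 0 in cortical tubule segments, with a median of 1.15, where 28.1% of all probes were above 0 with a median of -0.25. In medullary tubule segments 139 were above 0, with a median of 1.65, where 27.9% of all probes were above 0 with a median of -0.31. Of the 53 that fell, 2 were above 0 in cortical and 1 in medullary tubule segments. The macrophage-leaning share also rose in these tubule segments, from 1.15% to 1.26% to 2.23% to 5.34% in the cortex, and macrophage and tubule segments were areas of the same regions of interest. Its part in these values was not tested.

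The day effect differed between macrophage and tubule segments for 133 probes (0.659%) in the cortex. For 98 the log2 fold change was lower in macrophage segments, by a median difference of -1.39. Of these, 72 were called lower on day 14 in macrophage segments. The day calls came from the same macrophage sums, so this overlap was favored in advance. These 98 included 15 of the 80 tubule-leaning probes, a list that made up 0.397% of all probes. For 35 the log2 fold change was higher in macrophage segments, by a median of 1.78. Of the 133 probes, 20 were macrophage-leaning, with 14 of them among the 35 and the rest among the 98. Macrophage-leaning probes made up 2.03% of all probes. DESeq2 on the same sums called 69, of them 1 higher and 68 lower, so the calls in the higher direction rested on the test used. RTS0077370 rose by 1.80 more on the log2 scale in macrophage than in tubule segments (SE 0.42, adjusted p = 0.014 from edgeR), and RTS0078750 had a change of -1.09 relative to tubules (SE 0.29, adjusted p = 0.038 from edgeR). RTS0077370 was no longer called without section 1 of day 14 or section 2 of day 1, and RTS0078750 without any 1 of the 4 sections. DESeq2 on the same sums gave neither of them an adjusted p and so called neither. The number of probes was 64 without section 2 of day 1, 84 without section 1 of day 14, and 237 without section 1 of day 1.

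In the medulla, 43 probes (0.213%) differed between compartments, 13 with a higher and 30 with a lower fold change in macrophage segments. None of the 4 named probes was among them. RTS0081603 had a difference of -0.78 (SE 0.40, adjusted p = 0.52 from edgeR), which does not show that the compartments changed alike. Medullary tubule segments held it at 30.0 and 44.5 CPM on day 1, and on day 14 at 328, 1142, 749, and 1249 CPM. TMM normalization moved the median difference of all probes from 0.21 to 0.00 and gave 6 higher and 37 lower. Without section 2 of day 14, section 2 of day 1, or section 1 of day 14, the number was 9, 10, and 23, and without section 1 of day 1 it was 48, with the balance turned to 33 higher and 15 lower. DESeq2 on the same sums called 28, of them 1 higher and 27 lower.

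Entospletinib-treated kidneys gave the same comparison of days in other animals, with 14 macrophage segments. Of the 140 probes that rose in both regions with vehicle, 120 (85.7%) also had a log2 fold change above 0 with entospletinib in the cortex, and 133 (95.0%) in the medulla. Over all probes, 46.2% and 51.5% were above 0. The medians of the 140 were 0.76 in the cortex and 1.03 in the medulla with entospletinib, beside 1.85 and 1.98 with vehicle. Of the 53 probes that fell, 49 were below 0 with entospletinib in the cortex and 52 in the medulla, with medians of -0.54 and -0.90 beside -1.34 and -1.45. The probes had been chosen for large changes with vehicle, so these medians are no test of a difference between treatments.

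**Figure D5:**
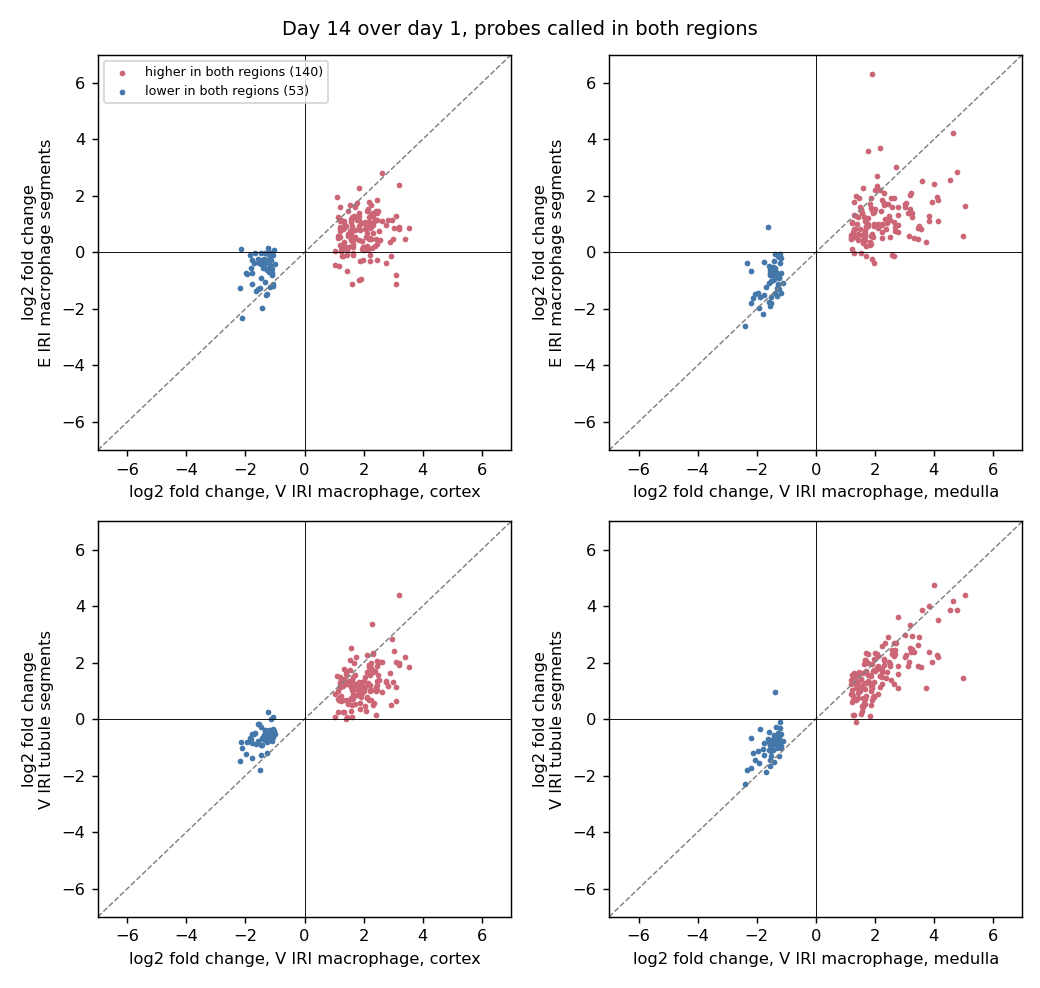
Log2 fold change of day 14 over day 1 for the 140 probes called higher (red) and the 53 called lower (blue) in both regions, in vehicle macrophage segments (horizontal axes) against entospletinib macrophage segments (upper panels) and vehicle tubule segments (lower panels), with a dashed line of equal values. Most points keep their sign and lie nearer 0 than the line, with medians of 0.76 (entospletinib) and 1.15 (tubules) for the red points in the cortex, beside 1.85.

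The difference of the day effect between vehicle and entospletinib was called for 85 probes (0.421%) in the cortex. For 73 the fold change was lower with vehicle, by a median of -2.19, and 63 of these were among the 428 called lower on day 14. The 73 included 20 of the 80 tubule-leaning probes (0.397% of all probes), a list chosen in part in entospletinib sections. For 12 the fold change was higher with vehicle, by a median of 2.47, and all 12 were among the 397 called higher. The day calls came from the same vehicle sums, so both overlaps were favored in advance. Of the 140 probes that rose in both regions, 8 differed. RTS0081603 rose by 1.85 more with vehicle on the log2 scale (SE 0.47, adjusted p = 0.033 from edgeR), with 145 ± 0.58 CPM on day 1 and 325 ± 136 on day 14 with entospletinib. RTS0077370 rose by 2.70 more (SE 0.68, adjusted p = 0.027 from edgeR). Both calls were lost without section 2 of either vehicle day or section 1 of either entospletinib day. That of RTS0081603 was also lost without section 2 of entospletinib day 1 and with TMM normalization. DESeq2 on the same sums gave RTS0077370 no adjusted p and so did not call it. The number of probes was 33 without section 2 and 191 without section 1 of vehicle day 1, and 41 without section 2 of entospletinib day 1. The entospletinib macrophage segments of day 14 were shallower, at 58579 to 220585 counts, than the vehicle ones.

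In the medulla, 7 probes (0.0347%) differed between vehicle and entospletinib, 5 with a higher and 2 with a lower fold change with vehicle. DESeq2 on the same sums called 0, with 372 probes at an unadjusted p under 0.05, and edgeR on the 9439 probes that passed its own filter on low counts called 0, with 461. The number was also 0 without section 2 of either vehicle day, where 775 (day 14) and 934 (day 1) probes had an unadjusted p under 0.05. Without other sections it was 2 without section 1 of day 14 in either group, 12 without section 1 of vehicle day 1, 15 without section 2 of entospletinib day 1, and 26 without section 2 of entospletinib day 14. For the 4 named probes the difference was not detectable here, with 1.57 for RTS0081603 (SE 0.55, adjusted p = 0.86 from edgeR).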

How the data were processed

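The authors deposited, per segment, counts of unique molecular identifiers per probe from the GeoMx NGS Pipeline (version 3.1.1.5 per the file headers, 1.1 per the labels), without normalization or background subtraction. The submitters' processing notes name mm10 and R 4.3.1. Files do not pair probes with genes, so aggregation to genes and negative-probe background were not repeated here. The 2 samples that the methods left out as outliers are not named, so none was left out. Members and lists were chosen with earlier results of these data known.

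Counts of the 14 segments and of the other groups were summed by section, region, and compartment. Probes with a sum of 20 or more were tested with edgeR 4.0.16 (R 4.3.3; upper quartile normalization, robust quasi-likelihood test, 14 sums of a region, or 28 with the section as a block for differences between regions or compartments), with Benjamini-Hochberg adjustment. Calls needed an adjusted p under 0.05 and, except for differences, an absolute log2 fold change above 1. SE is the absolute log2 fold change over the square root of F. Lists came from the same test and thresholds in the 10 other sections. Named probes were at most 2 per direction, called in both regions, by the smallest of the larger adjusted p. Alternatives were TMM, DESeq2 1.42.0, other filters, the prefix as a block, 4 sums alone, segments as replicates (DESeq2, limma-voom 3.58.1), thinned sums, and each section left out, where the remaining sum of a group took its spread from the rest. The main edgeR tests of the day effect and its differences were run on simulated data, with a fixed spread and no effect of section. The alternatives and the tests behind the lists were not.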

Additional observations from a re-analysis of the deposited data

Results flagged for a closer look

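Differences between groups in the day effect, each tested by its interaction term in edgeR, were found for 131 probes between medulla and cortex, 133 between macrophage and tubule segments in the cortex, 43 between these in the medulla, 85 between vehicle and entospletinib in the cortex, and 7 between these in the medulla. Among the named probes, RTS0077370 had a log2 fold change 1.80 higher and RTS0078750 one of -1.09 relative to tubule segments in the cortex. RTS0081603 rose by 1.85 more and RTS0077370 by 2.70 more on the log2 scale with vehicle than with entospletinib in the cortex.

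Samples that stood apart from the other 3 of their group by Dixon's criterion were found for the share of counts of the 103 cortical tubule probes. One cortical macrophage segment of day 14 had 1.40% beside 0.918% to 0.986% in the others, and 1 medullary macrophage segment of day 14 had 0.656% beside 0.602% to 0.605%. Both came from section 1. Chance flags about 1 in 20 groups, and no total count and no value of a named probe was flagged in the groups of 4 segments.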

How the results depend on the processing

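In the day comparison, the 4 named probes kept direction and call in both regions under every alternative, which their choice by the smallest adjusted p favored. Their calls for differences from tubules or entospletinib did not all hold, as given above. The balance of higher and lower calls did turn under several alternatives, for example in the cortex from 397 and 428 to 528 and 300 with TMM, 488 and 348 with filterByExpr, 587 and 272 with segments as replicates in DESeq2; for the difference between regions from 68 and 63 to 41 and 79 with TMM; and for that from tubules in the medulla from 13 and 30 to 33 and 15 without section 1 of day 1. DESeq2 on the sums called 442 probes in the cortex and 217 in the medulla, 21 for the difference between regions, 69 and 28 for the difference from tubules (cortex, medulla), and 0 for that from entospletinib in the medulla. With edgeR's filterByExpr the difference between regions was 86 and that from entospletinib in the medulla 0, and with TMM the latter was 4. In the medulla, 4 sums alone gave 764 calls and sums thinned to the lowest total 244. Leaving out 1 section at a time gave 304 to 861 calls in the cortex, 203 to 344 in the medulla, 34 to 130 for the difference between regions, 64 to 237 and 9 to 48 for that from tubules (cortex, medulla), and 33 to 191 and 0 to 26 for that from entospletinib. The 193 shared calls were 104 with DESeq2, 115 after thinning, and as few as 99 with a section left out. With the label prefix as a replicate block, calls were 973 in the cortex, 605 in the medulla, and 179 and 9 for the difference from entospletinib. Deviations of same-prefix sections from their group means correlated at 0.022 in the cortex and -0.0098 in the medulla between vehicle days 14 and 1 (4035 probes with the highest level, which are not independent). Over all pairs of groups they ranged from -0.15 to 0.29 in the cortex and from -0.26 to 0.33 in the medulla. The main fit took the prefix as a number only, and these values cannot decide whether sections of a prefix share an effect. Alternatives not named here kept these counts within 1.5 times. Depth limited day 1, where low probes had few counts.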
